A study of Mus musculus with 6 samples.

Results

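The 6 genes described here are Il1rn, Il1a, Il1b, Il18, Nlrp3 and Casp1, the interleukin-1 antagonist, 3 cytokines of the interleukin-1 family, an inflammasome sensor and the protease it activates. They are 6 of 753 gene rows on a probe panel, and all 6 had a row. They were chosen on earlier values of the same FHKO against control comparison. Their levels and differences are therefore given as a description, with no test. The series measured RNA of macrophages prepared from cells flushed out of the femur and tibia of factor H knockout mice (FHKO, 3 libraries) and of wild-type mice (genotype WT, called control, 3 libraries). Factor H is a plasma protein that restrains the complement cascade. Per the labels no agent was added, and the knockout mice were 8 to 10 weeks old. The labels state neither the background strain, the age of the wild-type mice, the culture conditions nor whether libraries came from separate animals. P-values below therefore measure only the spread between these libraries. The targeted gene was not analysed here, so the genotype was not checked against RNA.

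The interleukin-1 receptor on target cells is activated by interleukin-1 alpha (Il1a) and interleukin-1 beta (Il1b). The product of Il1rn binds the same receptor without activating it, so the effect of the agonists depends on how much antagonist is present. Macrophages make Il1b and Il18 as inactive precursors. After a priming signal that raises Nlrp3 and Il1b RNA, the Nlrp3 protein assembles an inflammasome in which caspase-1 (Casp1) is activated and cuts both precursors. The RNA levels here report on the supply of these proteins and not on cutting or release.

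Il1rn, Il1a and Il1b lie on chromosome 2, at 24336860-24351491, 129299609-129310186 and 129364569-129371164. Il18 and Casp1 lie on chromosome 9, at 50554700-50581841 and 5298517-5307281, and Nlrp3 lies on chromosome 11 at 59541569-59566955. These are RefSeq positions of whole genes in GRCm38.p6, and the part of each transcript that a probe reads is not stated. RefSeq lists 4 transcripts of Il1rn and 5 of Nlrp3. The Il1rn gene is known to make a secreted and intracellular forms of the antagonist from different first exons, so its value may sum over them.

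The promoter windows of the antagonist, the sensor and the agonist Il1b are printed because the results turn on these genes. Each window runs 5′ to 3′ along the gene's strand from 250 bases before to 50 bases after an annotated start, which is base 251. Il1rn and Nlrp3 have more than 1 annotated start, and a window that overlapped one already shown was left out. Capitals mark matches, on either strand, to the AP-1 motif TGANTCA, the TATA motif TATAAA, the ETS motif GAGGAAG and a kappa-B motif (GGG, any 5 bases, CC). Of 32841 RefSeq windows of the same length, 7.81% held the AP-1 motif, 13.6% the TATA motif, 13.6% the ETS motif and 50.8% the kappa-B motif.
Il1rn, first start, chr2:24336610-24336909, plus strand: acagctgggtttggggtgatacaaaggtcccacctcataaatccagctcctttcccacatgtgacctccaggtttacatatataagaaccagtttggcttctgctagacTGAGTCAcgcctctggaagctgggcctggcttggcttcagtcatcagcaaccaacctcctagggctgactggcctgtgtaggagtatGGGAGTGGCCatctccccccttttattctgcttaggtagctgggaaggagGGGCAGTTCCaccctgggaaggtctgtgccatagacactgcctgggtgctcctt
Il1rn, downstream start, chr2:24345041-24345340, plus strand: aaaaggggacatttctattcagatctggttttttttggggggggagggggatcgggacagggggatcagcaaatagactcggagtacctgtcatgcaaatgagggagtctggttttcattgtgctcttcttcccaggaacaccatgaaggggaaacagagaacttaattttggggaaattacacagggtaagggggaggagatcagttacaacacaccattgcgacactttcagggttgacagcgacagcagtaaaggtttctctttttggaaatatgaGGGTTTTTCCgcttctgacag
Nlrp3, first start, chr11:59541319-59541618, plus strand: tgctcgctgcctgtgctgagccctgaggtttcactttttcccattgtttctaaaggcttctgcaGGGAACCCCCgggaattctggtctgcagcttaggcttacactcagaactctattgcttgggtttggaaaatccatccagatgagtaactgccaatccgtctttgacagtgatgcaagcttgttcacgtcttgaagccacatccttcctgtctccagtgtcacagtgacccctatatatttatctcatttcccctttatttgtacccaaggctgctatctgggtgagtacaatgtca
Nlrp3, downstream start, chr11:59542436-59542735, plus strand: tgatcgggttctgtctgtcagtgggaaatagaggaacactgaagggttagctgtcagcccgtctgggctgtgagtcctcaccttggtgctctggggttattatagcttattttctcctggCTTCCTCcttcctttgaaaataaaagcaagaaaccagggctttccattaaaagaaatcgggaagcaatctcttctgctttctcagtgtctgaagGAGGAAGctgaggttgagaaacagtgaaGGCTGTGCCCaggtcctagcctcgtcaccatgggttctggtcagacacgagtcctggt
Il1b, chr2:129371090-129371389, minus strand: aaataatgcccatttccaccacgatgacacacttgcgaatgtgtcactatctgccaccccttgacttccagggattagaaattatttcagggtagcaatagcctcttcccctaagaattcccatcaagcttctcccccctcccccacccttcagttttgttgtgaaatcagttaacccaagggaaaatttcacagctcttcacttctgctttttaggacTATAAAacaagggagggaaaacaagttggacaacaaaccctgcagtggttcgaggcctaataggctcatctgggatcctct
The first Il1rn window held an AP-1 match at bases 110 to 116 and kappa-B matches at bases 197 to 206 and 247 to 256. Its downstream window held 1 kappa-B match, at bases 280 to 289. The first Nlrp3 window held a kappa-B match at bases 65 to 74, and the downstream one held ETS matches at bases 121 to 127 and 215 to 221 and a kappa-B match at 243 to 252. In the Il1b window only the TATA motif was matched, at bases 220 to 225. The matches are a description of the letters.

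Recovered probe counts summed to 717503 to 1348062 per library, and a count is written below on the authors' normalised scale unless called recovered. A gene was taken as above background in a library where it exceeded the mean plus 2 SD of the 8 negative-control rows, a limit of 16.5 to 29.1 normalised counts. Of the macrophage markers on the panel, all 7 (among them Adgre1, Csf1r, Cd68 and Mertk) were above it. Their summed level was 47904 to 51351 in control and 50272 to 52619 in FHKO. Within it, Adgre1 (mean 12079 in control, 13040 in FHKO) and Csf1r (5812 and 6986) were higher in every FHKO library than in any control library. Of the 7, only Cd68 had a lower mean in FHKO, 21336 against 22452 in control, and its groups overlapped. Among markers of other cells, Ly6g, Mpo, Cxcr2 and Camp of neutrophils were above it in 0 of 6 libraries. The same held for Flt3, Xcr1 and Clec9a of dendritic cells and for Cpa3 and Ms4a2 of mast cells. Other genes of these lists exceeded the limit in at least 3 libraries, namely S100a8, S100a9 and Csf3r of neutrophils and Batf3 of dendritic cells. The monocyte receptor gene Ccr2 was above it and higher in every FHKO library than in any control library, and highest in FHKO library 2. No marker of T cells was on the panel. In such bulk samples fewer cells of a type and less RNA per cell cannot be told apart.

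Il1rn was lower in all 3 FHKO libraries, and the groups lay far apart. Its normalised counts were 889, 873 and 966 in control libraries 1 to 3 and 531, 538 and 538 in FHKO libraries 1 to 3. The lowest control value was well above the highest FHKO value. The means were 909 ± 49.9 (SD, n = 3) and 535 ± 4.06 (SD, n = 3), a level 41.1% lower. On the log2(value + 1) scale the difference, FHKO minus control, was -0.76 ± 0.087 (SE). Of the other 489 tested genes, 1 (Vcam1) had a lower difference. Neutrophils also make Il1rn. Of the 8 neutrophil markers on the panel, 3 (S100a8, S100a9 and Csf3r) were above the background limit in at least 3 libraries. The summed level of the 8 was 299.6 to 343 in control libraries and 283 to 375 in FHKO libraries. The sum holds moves in opposite directions: mean S100a8 was 124 in control and 102 in FHKO, and mean Csf3r 103 and 132. Mean S100a9 was 24.0 and 23.2, and the groups of all 3 overlapped. The part of these markers in the Il1rn difference was not tested.

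**Figure D1:**
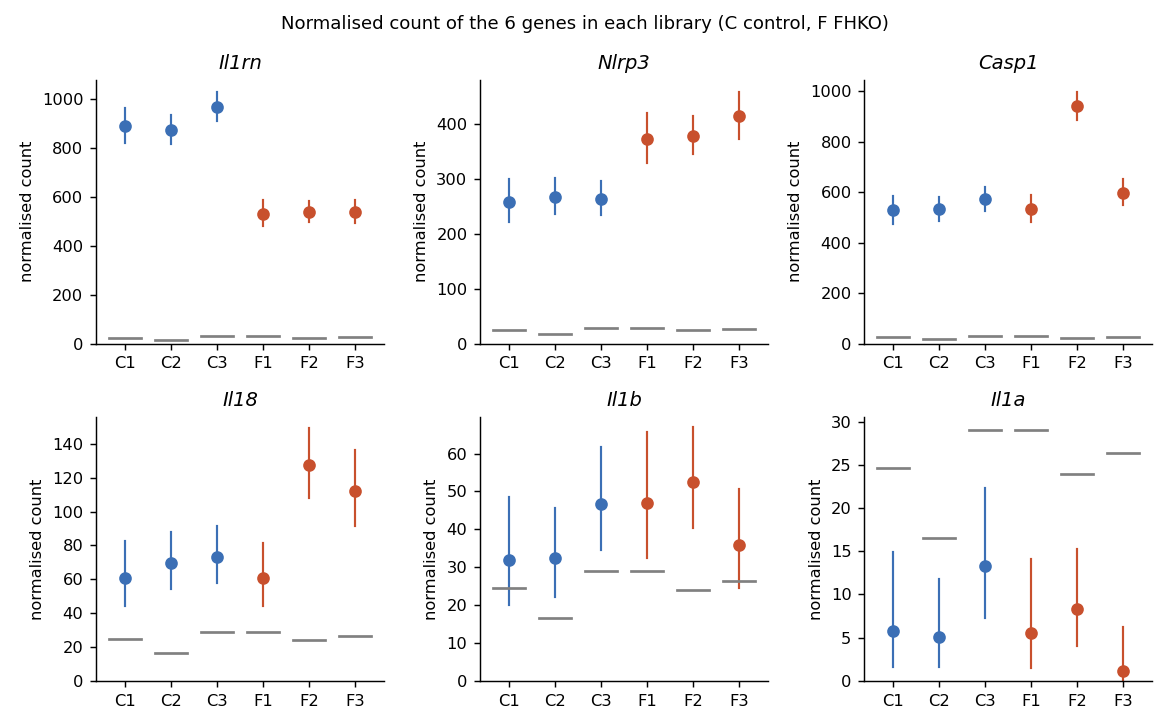
Normalised count of each gene in each library (linear axis from 0; C1 to C3 control, F1 to F3 FHKO). Bars are exact Poisson 95% intervals of the recovered count and cover counting error only, and grey ticks mark the background limit of each library. Il1rn separates downward and Nlrp3 upward, while Il1a lies under the limit in all 6 libraries.

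Nlrp3 was higher in all 3 FHKO libraries. Its normalised counts were 259, 268 and 264 in control libraries 1 to 3 and 373, 379 and 414 in FHKO libraries 1 to 3. The 2 groups did not overlap, and the control libraries lay within a few counts of each other. The means were 263 ± 4.45 and 389 ± 22.3 (SD, n = 3), a level 47.6% higher. The log2 difference was 0.56 ± 0.097 (SE). The size of this difference rested on the scaling: with library medians set equal it was 0.26 and the groups still did not overlap, whereas after quantile normalisation it was 0.28 and they overlapped.

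Of the 5 tested members, Il1rn and Nlrp3 were those whose groups did not overlap, 1 lower and 1 higher. Among all 490 tested genes 29.2% had groups that did not overlap, with 22.9% higher in FHKO and 6.33% lower. In the fit across all tested genes (limma, Benjamini-Hochberg adjusted p under 0.05) 1 of 490 genes was called, 0.204%, and that gene was Il1rn. Without FHKO library 2 the fit called 3 genes, Il1rn among them, and without any other single library it called 0. DESeq2 on the recovered counts called 26 of 490, 5.31%, Il1rn among them and no other member, with no adjusted p given for Il1b. Because the members were chosen on this contrast, nothing is read from these counts. On the deposited scaling the tested gene in the middle of the ranking had a log2 difference of 0.16. Relative to that median gene Il1rn had -0.92, Nlrp3 0.40, Il18 0.33, Casp1 0.14 and Il1b 0.13.

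**Figure D2:**
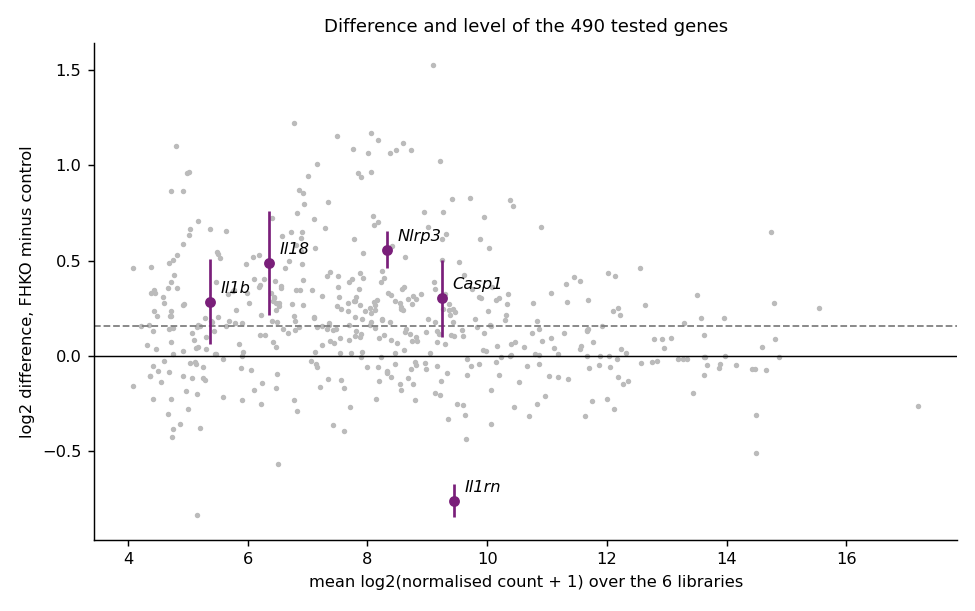
Log2 difference (FHKO minus control) against mean log2(normalised count + 1) for the 490 tested genes (grey points), with the 5 tested members marked (bars, standard error of the limma fit). The dashed line is the median difference of 0.16. Il1rn lies at -0.76, apart from genes of like level, and the other 4 members lie within the cloud of points.

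Casp1, the protease of the inflammasome, was high in 1 FHKO library. Control libraries 1 to 3 had 528, 532 and 571 normalised counts and FHKO libraries 1 to 3 had 533, 940 and 598. FHKO library 2 stood far above the other 5 libraries, and FHKO library 1 lay inside the control range. The log2 difference was 0.30 ± 0.20 (SE), and it was 0.057 without FHKO library 2 and 0.46 without FHKO library 1. With library medians set equal it was 0.01.

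Il18, whose precursor caspase-1 cuts, was high in 2 FHKO libraries. Its normalised counts were 61.1, 69.7 and 73.3 in control libraries 1 to 3 and 60.8, 127 and 112 in FHKO libraries 1 to 3. FHKO library 1 had the lowest value of all 6, so the groups overlapped. The means were 68.0 ± 6.28 and 100.1 ± 34.9 (SD, n = 3), and the log2 difference was 0.49 ± 0.27 (SE). It was 0.81 without FHKO library 1 and 0.28 without FHKO library 2, and 0.19 with library medians set equal. Ccr2 was at 238, 510 and 256 in FHKO libraries 1 to 3, so FHKO library 2 was also the highest for this monocyte marker. Whether that library's cell makeup bears on its Casp1 and Il18 was not tested.

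The agonist genes were low in all libraries. Il1b was at 32.0, 32.3 and 46.6 in control libraries 1 to 3 and at 47.0, 52.4 and 35.9 in FHKO libraries 1 to 3, above the background limit in 6 of 6. The groups overlapped, with control library 3 inside the FHKO range. These values rest on 22 to 63 recovered counts, and in control library 1 the 22 counts have an exact Poisson 95% interval of 13.8 to 33.3. The log2 difference was 0.28 ± 0.22 (SE), and it turned to -0.010 with library medians set equal. It was 0.17 without FHKO library 2 and 0.46 without control library 3. Il1a was at 5.82, 5.05 and 13.3 in control libraries 1 to 3 and at 5.53, 8.32 and 1.12 in FHKO libraries 1 to 3. It was above the limit in 0 of 6 libraries, was not tested, and gets no fold. Its 1 to 14 recovered counts lay near the negative-control means of 8.38 to 14.8 counts, so a difference in Il1a was not measurable above background.

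The balance of antagonist to agonist was taken as the ratio of Il1rn to Il1b inside each library, in which the scaling factor cancels. The size of such a ratio depends on the 2 probes, so only libraries are compared. The ratio was 27.8, 27.0 and 20.7 in control libraries 1 to 3 and 11.3, 10.3 and 15.0 in FHKO libraries 1 to 3. All 3 FHKO libraries had less antagonist RNA per agonist RNA than any control library. Such a separation was not particular to Il1b, since Il1rn had it against 96.5% of the other 489 tested genes. On the log2 scale it was 4.60 ± 0.23 in control and 3.56 ± 0.28 in FHKO (SD, n = 3), a difference of -1.05, or a ratio 2.07-fold lower. Il1rn carried most of this difference, since the Il1b groups overlapped. Il1b lay near the background limit, and with the negative-control mean subtracted the difference was -1.16.

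The balance of sensor to antagonist separated the groups by the widest gap of the 10 pairs formed from the 5 tested members. These are the 2 members whose groups did not overlap, in opposite directions, so a wide gap follows from their own values and is no added result. The ratio of Nlrp3 to Il1rn was 0.291, 0.307 and 0.273 in control libraries 1 to 3 and 0.703, 0.704 and 0.770 in FHKO libraries 1 to 3. The log2 ratio was -1.78 ± 0.084 in control and -0.46 ± 0.075 in FHKO (SD, n = 3), a difference of 1.32, or a ratio 2.50-fold higher. The nearest control and FHKO libraries were still 1.19 apart on the log2 scale. These values are unchanged by any scaling that multiplies a library by 1 factor.

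Il1rn also stood lower against its other partners. Its log2 ratio to Il18 differed by -1.25 and its ratio to Casp1 by -1.06, and in both cases the groups did not overlap. The ratio of Il1rn to Casp1 was nearly constant in control, at 1.68, 1.64 and 1.69, and lay at 0.995, 0.572 and 0.899 in FHKO libraries 1 to 3. Of the 10 pairs, the 4 with Il1rn had separate groups and the other 6 overlapped. For Il1rn this was common across the panel: its ratio to 96.5% of the other 489 tested genes was lower in FHKO with separate groups. The ratio of Nlrp3 was higher with separate groups against 57.1% of them, but not against Casp1, Il18 or Il1b.

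**Figure D3:**
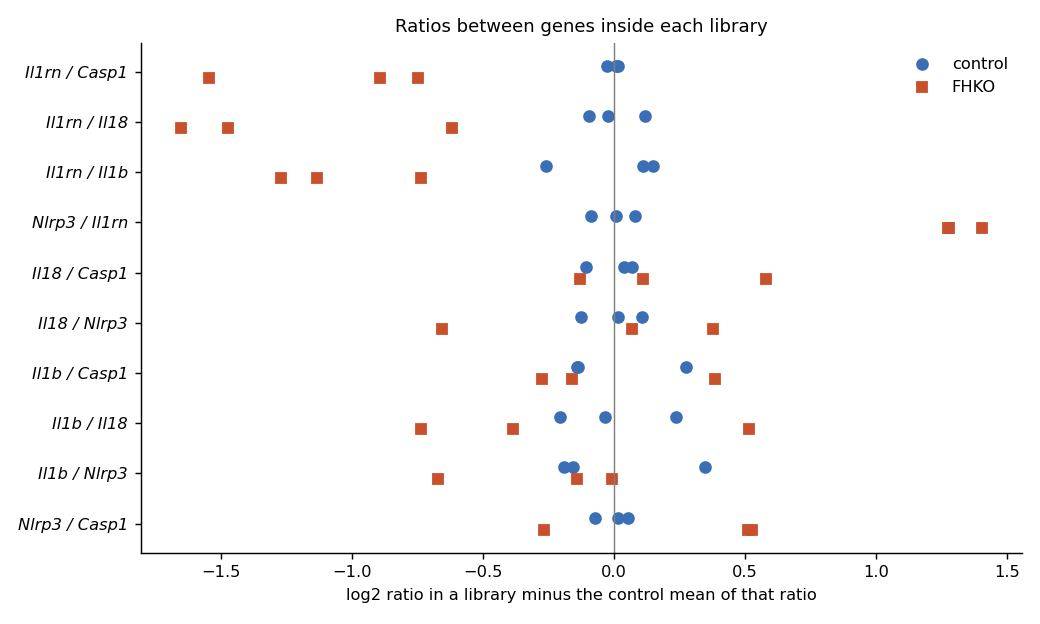
Log2 ratio of each pair of members in each library, minus the control mean of that ratio (circles control, squares FHKO). The 4 pairs that hold Il1rn separate the groups, with Nlrp3 over Il1rn 1.32 higher in FHKO on average, and the other 6 pairs overlap.

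The spread between libraries differed widely among the members. Casp1 had a coefficient of variation of 4.41% in control and 31.6% in FHKO, and Il18 of 9.23% and 34.8%. Counting noise alone would give Casp1 4.12% and Il18 10.8% in FHKO. Over all genes every pair of replicates differed by more than counting noise, so a spread above that level is common on this panel. For Il1b the spread was 22.6% in control and 18.6% in FHKO, close to the 17.7% and 15.8% of counting noise.

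Il1rn and Nlrp3 had the least spread of the 5 tested members when the SD was pooled over both groups, although Casp1 varied less than Il1rn in control. The 3 FHKO libraries of Il1rn varied by 0.759%, below the 4.56% that counting alone gives, and the 3 control libraries of Nlrp3 by 1.69%, below 6.58%. Those 2 SD values therefore understate the uncertainty of a single library. In the other group Il1rn varied by 5.48% and Nlrp3 by 5.74%. Set beside the 50 tested genes nearest in level, whose median pooled SD was 0.15 and 0.17 on the log2 scale, Il1rn had 0.056 and Nlrp3 0.060. Of those neighbours 5 varied less than Il1rn and 2 less than Nlrp3, whereas 42 varied less than Casp1 and 46 less than Il18. With library medians set equal, the FHKO SD of Il1rn was 0.095 on the log2 scale in place of 0.011, and the control SD of Nlrp3 was 0.13 in place of 0.024. The closeness of both genes therefore rests on the deposited factors, and the counts of neighbours were taken on that scaling alone.

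**Figure D4:**
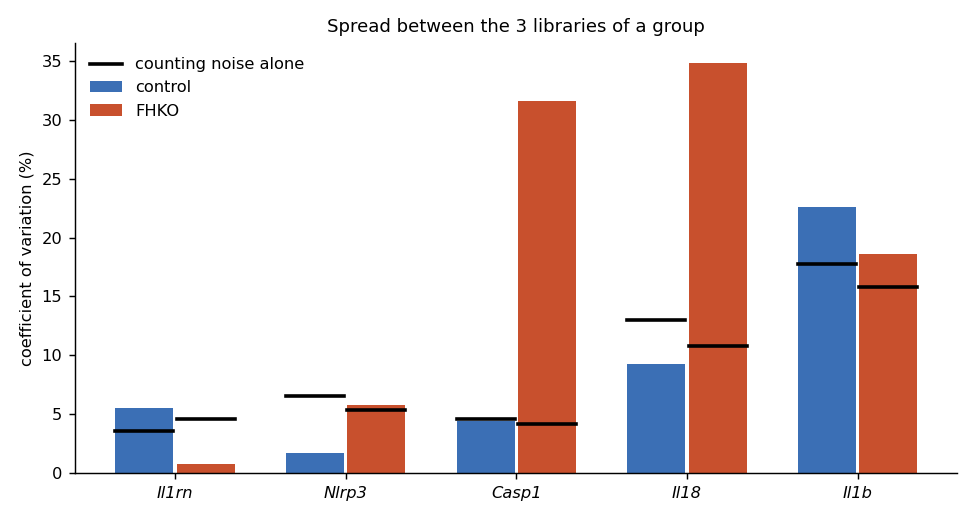
Coefficient of variation between the 3 libraries of each group (bars, from 0), with the value that counting noise alone would give (black lines). The FHKO bars of Casp1 and Il18 stand far above their lines at 31.6% and 34.8%, and the FHKO bar of Il1rn (0.759%) and the control bar of Nlrp3 (1.69%) lie below theirs.

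The genes most like each of 3 members over the 6 libraries were found by Pearson correlation of log2(value + 1) among 489 other tested genes. The difference between the groups and the shared scaling enter these values, so they are a description. Most like Il1rn were Mmp19, a matrix metalloproteinase gene (r = 0.957), Fcgr3, an activating IgG receptor gene (0.934), and the DNA repair gene Ercc1 (0.898). Mean Mmp19 was 222 ± 6.60 in control libraries and 168 ± 9.46 in FHKO libraries, and mean Fcgr3 was 4427 ± 74.5 and 3779 ± 204 (SD, n = 3). Most like Nlrp3 were Tap2 of the peptide transporter for MHC class I (0.973), Rgl1 (0.965) and the MAP kinase phosphatase gene Dusp1 (0.963). Nlrp3 was itself the gene least like Il1rn, with r = -0.977. For Il1b they were Rnd3 (0.961), the RNA sensor gene Tlr7 (0.940) and Rictor (0.938), and none of the other members ranked among its 3 nearest. Casp1 and Il18 had r = 0.834 with each other, which placed Il18 at rank 43 of 489 among the genes most like Casp1.

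Other genes of the pathway were taken from 6 lists, of which 32 genes were on the panel and 23 were tested. By limma 0 of the 23 passed an adjusted p of 0.05 in either direction, against 1 of all 490 tested genes. That gene was Il1rn, a member and so in none of the lists, which fixed the 0 for the lists. At an unadjusted p under 0.05, 2 were higher (Nfkbiz and Nfkb1) and 0 lower, against 19.0% and 3.47% of all tested genes. edgeR and DESeq2 also called 0 of them, against 1 and 26 of all 490 tested genes. With so few calls on the panel nothing is read from these counts. DESeq2 gave Vcam1, Ptgs2 and Il10 no adjusted p. The median log2 difference of the 23 was 0.16, equal to that of all tested genes. In 6 of them the groups did not overlap, all higher in FHKO, a share near the 22.9% of all tested genes.

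Of the receptors, Il1r1, which transmits the interleukin-1 signal, and the decoy receptor gene Il1r2 were above the background limit in 0 of 6 libraries. For Il1rap, the shared co-receptor, control libraries averaged 59.4 ± 8.57 and FHKO libraries 79.8 ± 18.9 (SD, n = 3), which is 0.40 higher on the log2 scale (limma, adjusted p = 0.275). Il1rl1, the receptor of interleukin-33, had 0.28 (limma, adjusted p = 0.570). Setting library medians equal left 0.11 and -0.020. Downstream, the adaptor gene Myd88 averaged 516 ± 34.5 in control and 491 ± 10.3 in FHKO libraries (SD, n = 3). Its log2 difference was -0.068 and that of the ubiquitin ligase gene Traf6 0.20 (limma, adjusted p = 0.669 and 0.393). With medians equal they lay at -0.36 and -0.097, so the sign for Traf6 turned. Pycard, the adaptor that joins Nlrp3 to caspase-1, averaged 70.3 ± 9.16 and 77.1 ± 19.2 (SD, n = 3) and differed by 0.11 on that scale (limma, adjusted p = 0.772). That sign turned too, to -0.19 with medians equal and to -0.057 without FHKO library 2.

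Among genes that interleukin-1 induces, Il6, Cxcl1, Csf2 and Csf3 were above the limit in 0 of 6 libraries, and 8 others were tested. Nfkbiz, an inducible NF-kB cofactor gene, was at 84.4, 112 and 108 in control libraries 1 to 3 and 130, 161 and 135 in FHKO libraries 1 to 3. Its groups did not overlap, and the log2 difference was 0.48 (limma, adjusted p = 0.148). The chemokine gene Cxcl2 had 0.36 and the adhesion molecule gene Vcam1 -0.84 (limma, adjusted p = 0.218 for each). Vcam1 was near background, at 49.2 ± 17.6 and 27.1 ± 11.3 (SD, n = 3). Setting library medians equal left 0.19 for Nfkbiz and 0.068 for Cxcl2, and moved Vcam1 further from 0, to -1.13.

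Of regulators known to act on these genes, 10 were tested. Nfkb1, an NF-kB subunit gene, averaged 564 ± 38.4 over control libraries and 708 ± 72.9 over FHKO libraries (SD, n = 3). It differed by 0.32 on the log2 scale (limma, adjusted p = 0.155), and by 0.029 once library medians were equal. The inhibitor gene Nfkbia had 0.28 and Il10ra, a chain of the interleukin-10 receptor, 0.18 (limma, adjusted p = 0.226 and 0.333). Both values were below 0 once library medians were equal, at -0.015 and -0.12.

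Across all 21 alternative settings the difference of Il1rn lay between -1.06 and -0.72 and that of Nlrp3 between 0.26 and 0.60, with no change of sign. For Casp1 it ran from 0.01 to 0.46 and for Il18 from 0.19 to 0.81. The filters, the eBayes settings and the replicate term cannot alter these differences, so the ranges rest on the other settings.

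**Figure D5:**
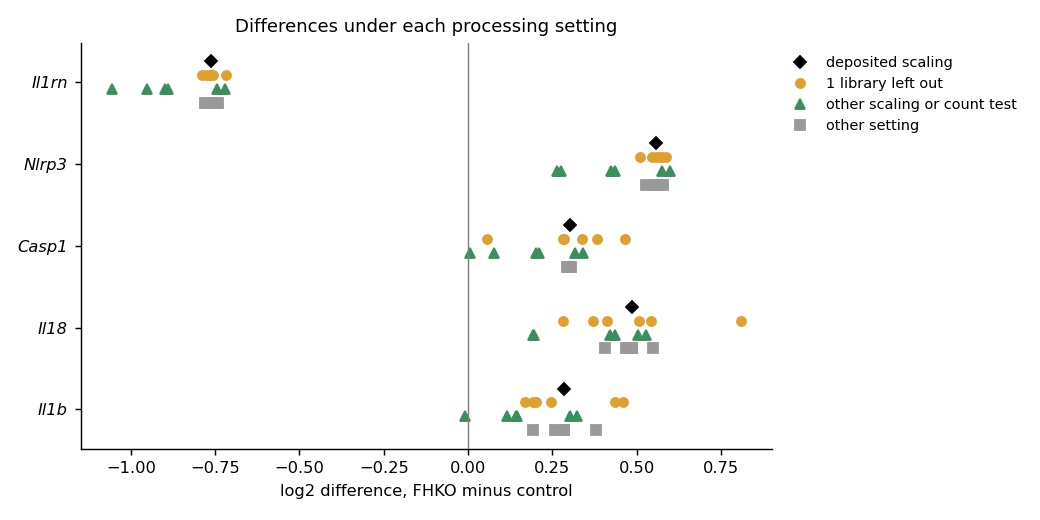
Log2 difference (FHKO minus control) of each tested member on the deposited scaling (diamonds), with 1 library left out (circles), with another scaling or count test (triangles) and with other settings (squares). Il1rn stays between -1.06 and -0.72, and Il1b reaches -0.010 at one scaling.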

How the data were processed

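Per the file's values, the deposited table holds a normalised signal for 753 genes and 14 control rows: each gene value is a whole count multiplied by 1 factor per library. Whole counts were recovered for 99.7% of gene values within a tolerance of 0.0051, and the authors' factors brought 16 of 20 reference genes to 1 common geometric mean. Platform, software and versions are not given in the sources used here. Groups came from sample titles. Genes at a value of 20 or more in at least 3 of 6 libraries (490) were tested across all genes with limma 3.58.1 (trended eBayes, R 4.3.3) on log2(value + 1), which understates differences of low genes, with Benjamini-Hochberg adjustment at 0.05. edgeR 4.0.16 and DESeq2 1.42.0 were run on the recovered counts. Other alternatives were each library left out, the replicate number as a term, library medians set equal, quantile normalisation, other reference genes, filters, pseudocounts and eBayes settings. The recovery of counts and the limma fit were tried on simulated data. Those data held no shift of whole libraries, so they do not bear on the dependence on scaling. Members and lists were chosen with earlier results of these data known. Named genes were all members, the 3 genes of smallest p per list and the 3 most correlated with Il1rn, Nlrp3 and Il1b. Markers and other genes named beside a count were chosen after their values were seen. Counting intervals cover counting error only, and no 2 replicates matched within sampling noise (chi-square divided by its degrees of freedom, 14.6 to 55.0). Figures used matplotlib 3.10.9.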

Additional observations from a re-analysis of the deposited data

How the results depend on the processing

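On the deposited scaling limma called 1 gene. With library medians set equal it called 14 (4 higher, 10 lower), and DESeq2 on recovered counts called 26 (14 higher, 12 lower). Leaving out 1 library gave 0 to 3 calls: 3 without FHKO library 2 and 0 without any other. With the replicate number as a term (replicate block) 0 genes were called. The labels give the numbers no shared origin, and same-numbered libraries did not all deviate together (r over 490 genes of 0.262, -0.033 and -0.294), so the numbers were not taken as pairs. Of the 23 other pathway genes 0 were called under every alternative with an adjusted p. Most of those alternatives called 1 gene or none on the whole panel, so nothing is read from that. At an unadjusted p under 0.05, an alternative added after seeing the data, 2 were called. The difference of Il1b turned to -0.010 with library medians set equal, the only sign change among the 5 tested members. The Nlrp3 to Il1rn difference of 1.32 was 1.23 after quantile normalisation and 1.23 to 1.36 over all 14 alternatives. That of Il1rn to Il1b lay between -1.20 and -0.93. The groups stayed separate in each, but most of these settings could not have made them overlap. Leaving out a library cannot do so, 1 factor per library leaves such a ratio almost unchanged, and the replicate term uses the same values. Only quantile normalisation, the other pseudocounts and the subtraction of the negative-control mean could have done so. The cause of the movements between settings was not tested. With 3 libraries per group and Il1b at 22 to 63 recovered counts, depth limits what can be said of the agonists.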
